A study of Mus musculus with 15 samples.

Results

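ATP-binding cassette (ABC) genes were followed in epithelial cells isolated from the adult mouse small intestine. Members were the rows of the deposited table whose annotation gave exactly 1 gene symbol starting with Abca, Abcb, Abcc, Abcd, Abce, Abcf or Abcg and a number. There were 48 such genes among the 19938 symbols with a row, measured on 49 rows, and the row with the higher mean was taken for Abcb5, which had more than 1. The signal is the log2 value that the authors deposited for each transcript cluster of the Affymetrix Mouse Gene 1.0 array. RNA came from 15 samples in 5 groups of n = 3 arrays: WT jejunum and WT ileum of wild-type CD1 mice, cKI ileum of Gata4 conditional knockin animals, control ileum of mice named only as adult controls, and cKO jejunum of Gata4 conditional knockout animals. The labels name neither the Cre driver or promoter, nor the strain of the cKI, control and cKO mice, nor whether animals were pooled. They give no jejunal control for the cKO mice, so the knockout and the set of mice cannot be told apart there. GATA4 is a zinc finger transcription factor, made mainly in the more proximal small intestine.

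ABC proteins bind and hydrolyse ATP. Most are membrane pumps that move lipids, bile salts, drug conjugates, peptides or metals, while the E and F subfamilies lack membrane domains and act in translation. In enterocytes, apical pumps such as P-glycoprotein, encoded in mice by Abcb1a and Abcb1b, and Abcg2 return drugs and dietary toxins to the lumen. Abcc2 does the same for glucuronide and glutathione conjugates, and Abcg5 with Abcg8 forms a dimer that returns plant sterols and cholesterol.

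A gene was tested when the highest of its 5 group means exceeded 4.908, the table-wide median signal, and 27 of the 48 members were tested. The other 21 had group means of at most 4.87, and their arrays ran from 2.09 to 5.34. Nearest to the limit were Abcg4 (4.87), Abca5 (4.81) and Abcc8 (4.81) below it, and Abcc5 (5.29) and Abca12 (5.39) above it, as the highest group mean of each. Tests were done with limma over all 11784 genes that passed the limit, and a gene was called at an adjusted p below 0.05 after the Benjamini-Hochberg correction. Each difference is a log2 difference of group means with its standard error. The labels do not say whether arrays of a group stem from separate animals. Their p-values then reflect the spread among these samples alone, which may be technical. A fold is given only where both group means exceeded the limit.

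Array medians ran from 4.82 to 5.0. Gata4 signal was 9.45 to 9.68 on the WT jejunum arrays and 5.39 to 5.99 on those of the WT ileum. It was 8.02 to 8.43 in the cKI ileum and 6.53 to 7.22 in the control ileum. On the arrays labelled cKO jejunum it was 9.72 to 9.93, above all 3 WT jejunum arrays (0.31 ± 0.185, adjusted p = 0.322 in limma). The transcript cluster therefore did not show the knockout, and the sources used here do not say which part of Gata4 was deleted or where the probes lie, so this cluster is no check of the label. The group is called the jejunum labelled cKO throughout. All 10 enterocyte markers were tested, and their mean signal was 11.12 to 11.69 over the 15 arrays. Single markers moved apart, since Alpi was called higher and Krt8 and Krt19 lower in the WT jejunum than in the WT ileum. Krt8 and Krt19 were called higher in the jejunum labelled cKO than in the WT jejunum, and Krt8 in the control than in the WT ileum. None was called between cKI and control ileum.

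Markers of other cells differed between the groups in ways that run beside some of the results. The mean of 14 stromal markers was 4.62 to 4.86 in the WT jejunum, 5.35 to 5.65 in the WT ileum, 5.49 to 6.44 in the control ileum, 5.19 to 5.45 in the cKI ileum and 4.92 to 5.15 in the jejunum labelled cKO. The mean of 7 goblet cell markers was 10.41 to 10.57, 11.18 to 11.32, 11.37 to 11.44, 11.03 to 11.12 and 10.83 to 10.98 in the same order. For 9 markers of T and NK cells the ranges were 5.84 to 6.61, 5.33 to 6.22, 6.28 to 7.03, 4.8 to 6.19 and 5.8 to 6.51. Among other marker lists, the genes called in the regional comparison were 2 lower of 7 for B and plasma cells, 3 lower of 9 for myeloid cells, 1 lower of 8 for crypt and cycling cells, 1 higher and 1 lower of 7 for enteroendocrine and tuft cells, and 0 of 5 for Paneth cells. For the lists above, 6 of 7 goblet and 8 of 12 tested stromal markers were called lower in the WT jejunum, and 0 of 7 tested T and NK markers were called. Of all tested genes, 13.4% were higher and 7.91% lower in that comparison. Only 2 of 8 endothelial markers were tested, and neither was called in any comparison. Between control and WT ileum, called markers were 5 higher of 8 for crypt and cycling cells and 3 higher of 7 for enteroendocrine and tuft cells. They were 3 higher of 7 tested for T and NK cells, 1 higher of 7 for B and plasma cells and 1 higher of 5 for Paneth cells. Myeloid markers had 1 higher and 1 lower of 9, goblet 4 and 1 of 7, and stromal 3 and 2 of 12. Of all tested genes, 19.3% were higher and 8.61% lower there. In a bulk sample, fewer cells of a type and less RNA per cell cannot be told apart.

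**Figure D1:**
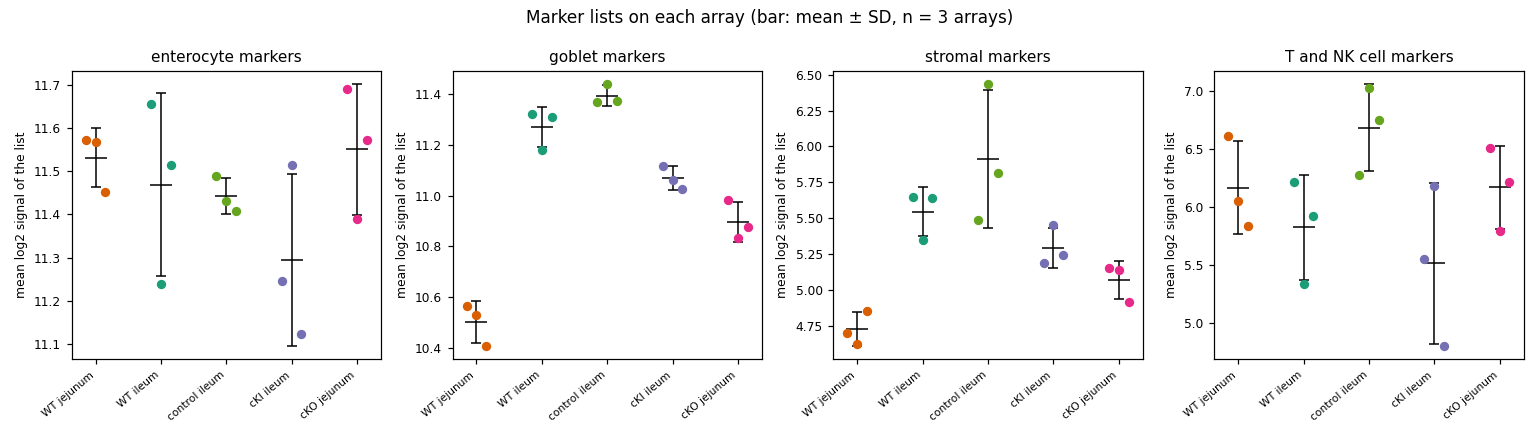
Mean log2 signal of 4 marker lists on each array, by group (points are arrays, bars the mean ± SD of n = 3). Goblet and stromal lists were lowest in the WT jejunum, at 10.41 to 10.57 and 4.62 to 4.86. The mean of the enterocyte list lay between 11.12 and 11.69, though single markers of it were called in opposite directions by region.

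Between the regions of wild-type intestine, the test called 13 of the 27 tested members, 8 of them higher and 5 lower in the jejunum. That is 48.1% of members, where 21.3% of all tested genes were called, 13.4% higher and 7.91% lower. The conjugate pump Abcc2 was higher in the jejunum, as were the sterol pumps Abcg5 and Abcg8, the peroxisomal Abcd3 and the organelle proteins Abcb8 and Abcb9. Abcb1a, Abcg2, Abcc1, Abcc4 and Abca12 were lower. The median difference over members was 0.03, against 0.00 over all tested genes. Groups did not overlap for 18 of 27 members, and for 40.3% of all tested genes.

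Among pumps for drugs and conjugates, 2 of the 9 tested were higher in the jejunum and 4 were lower. Abcc2 signal was 9.81, 10.10 and 8.82 in the WT jejunum and 7.89, 6.36 and 6.51 in the WT ileum. Every jejunal array exceeded every ileal one, and the first ileal array lay more than 1 log2 unit above the other two. The difference was 2.66 ± 0.409 (6.31-fold, adjusted p = 0.000235). Abcc6, a pump whose loss causes ectopic calcification, was higher by 0.91 ± 0.199 (1.87-fold, adjusted p = 0.00382).

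Abcb1a went the other way. Its signal was 9.81, 9.48 and 9.09 in the WT jejunum and 11.33, 9.85 and 10.24 in the WT ileum. The groups did not overlap, though their nearest arrays almost met, and WT ileum replicate 1 stood far above the rest. The difference was -1.01 ± 0.32 (2.02-fold, adjusted p = 0.0344). It was -0.58 without WT ileum replicate 1 (0.159), -1.02 without WT jejunum replicate 2 (0.0844), -0.83 without WT jejunum replicate 3 (0.126), and its adjusted p was 0.0707 from only the 6 arrays compared and 0.0557 with a trended, robust eBayes step. It was -0.33 with the stromal marker mean as a covariate (0.735). With the goblet marker mean as a covariate, the sign turned for Abcb1a (2.57, adjusted p = 0.189) and Abcg2 (0.71, 0.643). Of the variance of that mean, 97% lay between the groups, so such a fit leaves little to separate group from marker. For the stromal mean the share was 79.7%, so fits with it separate group from marker only in part.

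Abcg2, the breast cancer resistance protein, had a signal of 8.95, 9.08 and 8.71 in the WT jejunum and 9.81, 9.19 and 9.62 in the WT ileum. All jejunal arrays were lower, by a mean log2 difference of -0.63 ± 0.186 (1.54-fold, adjusted p = 0.0252). The adjusted p was 0.0525 with the replicate number as a block within sets of mice. It was 0.116 without WT ileum replicate 1, 0.0795 without WT ileum replicate 3, 0.0589 without WT jejunum replicate 1, 0.0955 without WT jejunum replicate 3 and 0.0829 with the stromal covariate.

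Abcc1 and Abcc4 export conjugates and cyclic nucleotides. Abcc1 was at 5.46, 5.68 and 5.55 in the WT jejunum and at 6.21, 6.28 and 6.25 in the WT ileum, and it differed by -0.69 ± 0.182 (1.61-fold, adjusted p = 0.0136, and 0.0551 without WT jejunum replicate 1). Abcc4 was at 4.67, 4.92 and 4.48 against 5.24, 5.81 and 5.39, a difference of -0.79 ± 0.175 (adjusted p = 0.0041). Its jejunal mean lay under the test limit, so no fold is given. Both genes were lower on every jejunal array. Abcc3, a basolateral exporter, differed by -0.40 ± 0.214 (95% interval -0.86 to 0.05), Abcc5 by -0.00 ± 0.167 (-0.36 to 0.35) and Abcc10 by 0.10 ± 0.0966 (-0.10 to 0.31). None of these last 3 passed the test. The groups of Abcc3 did not overlap, though, and it was called lower from only the 6 arrays compared and with the stromal covariate.

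The sterol pair rose together toward the jejunum. Abcg5 was at 10.93, 10.69 and 10.26 in the WT jejunum and 10.10, 9.58 and 9.73 in the WT ileum, higher by 0.83 ± 0.203 (1.77-fold, adjusted p = 0.00838, and 0.161 with the stromal covariate). Abcg8 was at 10.19, 10.19 and 9.70 against 9.28, 8.61 and 8.84, higher by 1.12 ± 0.203 (2.17-fold, adjusted p = 0.000943). For both genes the lowest jejunal array exceeded the highest ileal one. The 2 genes are neighbours on chromosome 17 and are read in opposite directions, and on build GRCm38.p6 the RefSeq promoter window of Abcg5 shares 209 bases with 1 of the 2 windows of Abcg8 and 0 with the other.

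Other lipid transporters split. Abca2, an endolysosomal sterol and lipid transporter, was at 6.34, 6.62 and 5.98 in the WT jejunum and 5.32, 5.39 and 5.53 in the WT ileum, higher by 0.90 ± 0.15 (1.87-fold, adjusted p = 0.000454). Abca12, which loads lipids into the lamellar granules of skin, was at 3.47, 3.84 and 3.96 against 5.87, 4.85 and 5.45, a difference of -1.63 ± 0.219 (adjusted p = 6.81e-05). Abca12 was tested only because its WT ileum mean (5.39) exceeded the limit, and the other 4 group means lay below it (3.76 to 4.57). Its 2 calls, both against the WT ileum, therefore rest on the group that let it in, and they are given as a description, though the 5 lower by region and the 2 lower in the control ileum include it. Of the 8 tested genes for sterols and phospholipids, 3 were higher, 1 lower and 4 did not pass. Those 4 were Abca1, the cholesterol exporter of high-density lipoprotein formation (-0.00 ± 0.193), Abca3 (-0.18 ± 0.101), Abca7 (-0.20 ± 0.152) and Abcg1 (-0.10 ± 0.127).

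In organelles, Abcd3, which brings bile acid precursors and branched fatty acids into peroxisomes, was at 10.82, 10.70 and 10.73 in the WT jejunum and 10.13, 9.79 and 9.99 in the WT ileum, higher by 0.78 ± 0.124 (1.72-fold, adjusted p = 0.000306). Abcb9, a lysosomal peptide transporter, was at 6.71, 6.67 and 6.34 against 5.43, 5.41 and 5.89, higher by 1.00 ± 0.148 (1.99-fold, adjusted p = 0.000173). Abcb8, of the mitochondrial inner membrane, was higher by 0.47 ± 0.13 (1.38-fold, adjusted p = 0.018). Its adjusted p was 0.0736 without WT ileum replicate 1, 0.0863 without WT jejunum replicate 2 and 0.717 with the stromal covariate. Abcb6, a porphyrin transporter, Abcb10, of mitochondrial heme supply, and Abcd4, of lysosomal cobalamin release, did not pass, with differences of -0.26 ± 0.187, 0.20 ± 0.119 and 0.03 ± 0.113. Nor did any of the 4 translation factors Abce1, Abcf1, Abcf2 and Abcf3, which lay between -0.10 and 0.17.

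**Figure D2:**
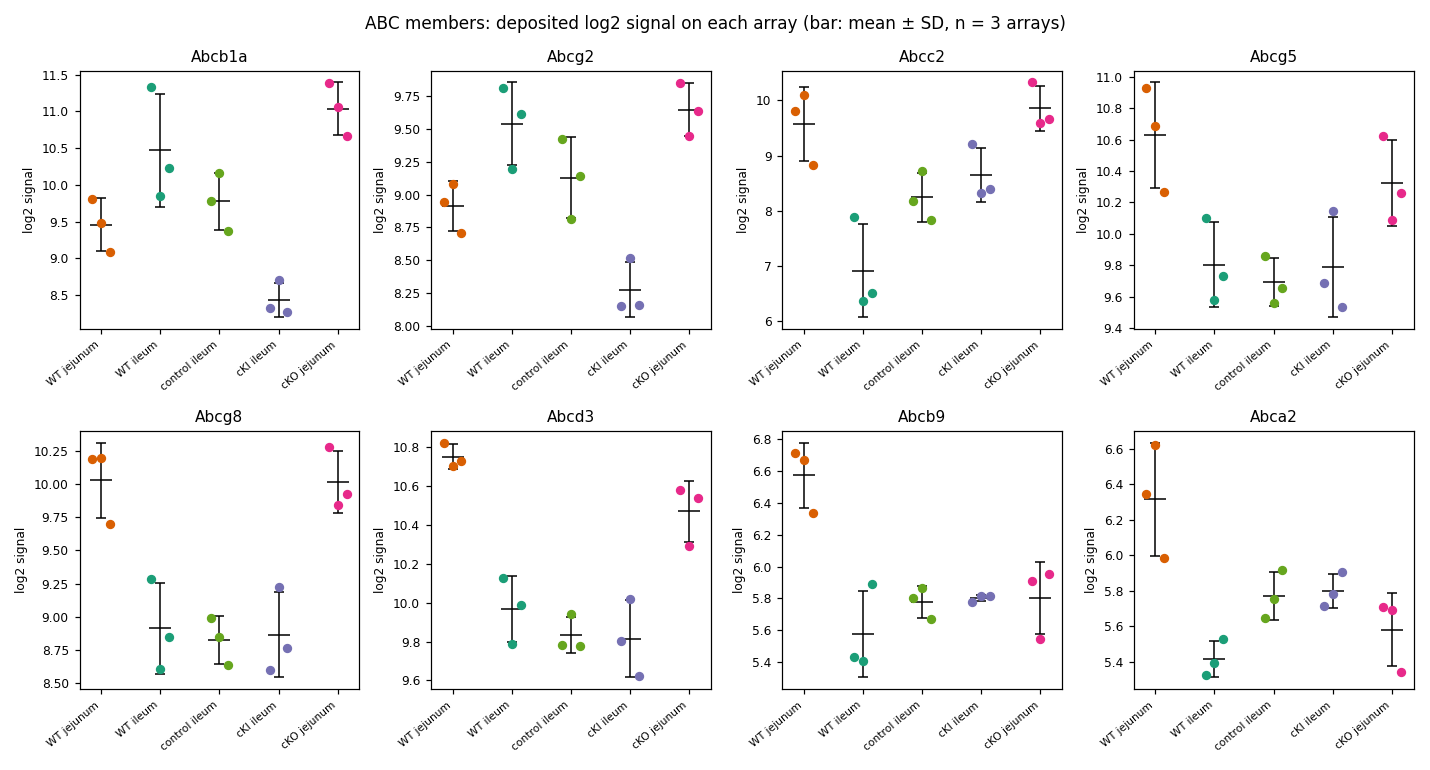
Deposited log2 signal of 8 members on each array, by group (points are arrays, bars the mean ± SD of n = 3). Abcb1a and Abcg2 were lowest in the cKI ileum and highest by mean in the jejunum labelled cKO, whereas Abcg8 stayed at 9.84 to 10.28 in the latter.

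Promoter windows are shown for members with opposite or shared regional direction, to set their sequence beside these values. Windows are RefSeq's 300 bases around the start site, most of them before it, and 38 of the 48 members had at least 1. GATA motifs were searched as AGATAA or AGATAG and as TGATAA or TGATAG on both strands, which share the letters GATA and differ beside them; this was the only motif search made. At least 1 was present in 12 of the 38 members (31.58%) and in 33.04% of all genes with a window. The members' share lies near that of all genes. Capitals mark the matches, and a match is a description of letters, not of binding. Abcg2 was called in 3 comparisons and Abca12, Abcb9, Abcc2, Abca2 and Abcb1a in 2 each. Smallest p breaks that tie in favour of Abca12, Abcb9 and Abcc2. Of these Abcc2 is printed, and Abcb1a and Abcg8 were chosen after their values were seen.
Abcg8, chr17:84682871-84683170, plus strand: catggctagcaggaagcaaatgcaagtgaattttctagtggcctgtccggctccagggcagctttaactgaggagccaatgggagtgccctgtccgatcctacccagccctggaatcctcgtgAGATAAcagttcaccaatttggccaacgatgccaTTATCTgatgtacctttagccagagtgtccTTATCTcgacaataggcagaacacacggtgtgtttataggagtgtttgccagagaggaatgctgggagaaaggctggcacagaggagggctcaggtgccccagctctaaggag
Abcb1a, chr5:8566841-8567140, plus strand: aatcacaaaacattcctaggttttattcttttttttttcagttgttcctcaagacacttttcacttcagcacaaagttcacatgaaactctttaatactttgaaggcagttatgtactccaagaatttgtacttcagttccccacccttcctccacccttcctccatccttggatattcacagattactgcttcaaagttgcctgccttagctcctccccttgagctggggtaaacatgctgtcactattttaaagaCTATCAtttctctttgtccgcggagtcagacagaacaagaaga
Abcc2, chr19:43782058-43782357, plus strand: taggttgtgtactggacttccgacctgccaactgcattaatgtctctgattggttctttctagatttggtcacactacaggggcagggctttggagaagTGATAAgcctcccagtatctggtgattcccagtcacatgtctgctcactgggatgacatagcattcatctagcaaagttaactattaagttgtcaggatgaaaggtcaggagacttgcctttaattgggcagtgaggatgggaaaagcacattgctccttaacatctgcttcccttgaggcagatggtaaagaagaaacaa
The Abcg8 window printed holds 3 matches, all AGATAA on 1 strand or the other, and all 3 lie in the stretch shared with Abcg5. The other Abcg8 window, starting at 84676052, holds 0. Of all 32851 windows, 1.76% hold at least 3. The 3 windows of Abcg2 (starting at 58584283, 58596422 and 58640296 on chromosome 6, plus strand) and that of Abcb9 held none of these motifs, which says only that the letters are not in these windows. In Abca12 1 match lay 2 bases after the start site.

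The cKI ileum differed from the control ileum in 1 of 27 members, Abcg2, which was lower. That is 3.7% of members, against 0.764% of all tested genes called (0.339% higher, 0.424% lower). Abcg2 was at 8.15, 8.52 and 8.16 in the cKI ileum and 9.43, 8.81 and 9.15 in the control ileum. All cKI arrays lay below all control arrays, and also below all WT jejunum arrays. The difference was -0.85 ± 0.186 (1.81-fold, adjusted p = 0.0499997), just under the threshold. It was 0.0814 with the replicate block within sets and 0.0579 with a block over all arrays, and it exceeded 0.05 without 10 of the 15 arrays taken 1 at a time, up to 0.198 without cKI ileum replicate 1.

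Abcb1a had a larger difference with more spread. It was at 8.32, 8.70 and 8.28 in the cKI ileum and 9.78, 10.16 and 9.38 in the control ileum, and the groups did not overlap. The difference was -1.34 ± 0.32 (2.53-fold, 95% interval -2.02 to -0.66), with an adjusted p of 0.0705. With the replicate number as a block it was 0.0226 within sets and 0.0443 over all arrays, and with array weights it was 0.0193. Those were the settings with a call, 3 of 13. Leaving out 1 array at a time gave a call in 1 of 15 fits, without WT ileum replicate 1 (0.0217). In the other such fits the adjusted p reached 0.234. T and NK cell markers had a median difference of -1.19 in the same comparison, with 0 of 7 called, and stromal markers one of -0.72, with 2 of 12 called lower. Their part in the Abcb1a and Abcg2 values was not tested beyond the covariates: with the stromal mean in the fit, Abcg2 differed by -1.02 (adjusted p = 0.193) and Abcb1a by -0.83 (0.726), and with that of T and NK cells by -0.59 (0.492) and -0.61 (0.708). With the goblet mean the values were -0.29 (0.857) and 0.17 (0.959).

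None of the 8 members called higher in the WT jejunum passed in this comparison. Abcc2 was at 9.22, 8.33 and 8.40 in the cKI ileum and 8.18, 8.72 and 7.84 in the control ileum, which overlap, with a difference of 0.40 ± 0.409 (95% interval -0.47 to 1.28). Abcg5 and Abcg8 differed by 0.10 ± 0.203 (-0.34 to 0.53) and 0.04 ± 0.203 (-0.40 to 0.47). Abcb8 was higher by 0.31 ± 0.13 (0.03 to 0.59, adjusted p = 0.287), with overlapping groups, and Abcc6 differed by -0.24 ± 0.199 (-0.66 to 0.19). Abca2, Abcb9 and Abcd3 differed by 0.03 ± 0.15, 0.02 ± 0.148 and -0.02 ± 0.124. For the last 3 the intervals reached at most 0.35, beside regional differences of 0.78 to 1.00; the change between the 2 comparisons was not tested. Abca1 was at 5.97, 6.49 and 5.80 against 5.39, 5.64 and 5.60, with every cKI array above every control array, a difference of 0.54 ± 0.193 and an adjusted p of 0.216. Abca12 differed by -0.73 ± 0.219 (0.147). Groups did not overlap for 7 of 27 members, and for 20.9% of all tested genes.

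The jejunum labelled cKO differed from the WT jejunum in 4 of 27 members, with Abcb1a and Abcg2 higher and Abca2 and Abcb9 lower. That is 14.8% of members, against 12.8% of all tested genes (5.17% higher, 7.65% lower), so the members' share lay near the background. The WT jejunum arrays also enter the regional comparison, so opposite signs in both are not independent.

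Abcb1a was at 11.38, 11.05 and 10.67 in the jejunum labelled cKO, above all WT jejunum arrays (9.09 to 9.81). The difference was 1.58 ± 0.32 (2.99-fold, adjusted p = 0.004), and it stayed called without each of the 15 arrays in turn. Abcg2 was at 9.85, 9.45 and 9.64, against 8.71 to 9.08 in the WT jejunum, higher by 0.73 ± 0.186 (1.66-fold, adjusted p = 0.0167). Its adjusted p was 0.0663 without WT jejunum replicate 3 and 0.0619 without cKO jejunum replicate 1. Goblet markers were called higher in the same comparison for 5 of 7 genes and stromal markers for 1 of 12. With the stromal mean as a covariate, Abcb1a differed by 1.29 (adjusted p = 0.0232) and Abcg2 by 0.83 (0.02). With the goblet mean, neither was called and Abcb1a turned in sign, at -0.26 (0.849) and 0.05 (0.963).

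Abcb9 was at 5.91, 5.54 and 5.95 in the jejunum labelled cKO, below all WT jejunum arrays, with a difference of -0.77 ± 0.148 (1.7-fold, adjusted p = 0.00275). Abca2 was at 5.71, 5.69 and 5.34, also below all of them, with a difference of -0.73 ± 0.15 (1.66-fold, adjusted p = 0.00413). Both kept their call without each array in turn, but with the goblet covariate Abca2 lost its call (-1.11, adjusted p = 0.0989).

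Other members with regional differences did not pass. Abcc2 was at 10.33, 9.59 and 9.66 in the jejunum labelled cKO, within or above the WT jejunum range, with a difference of 0.28 ± 0.409 (95% interval -0.59 to 1.15). Abcg8 was at 10.28, 9.84 and 9.92, a difference of -0.01 ± 0.203 (-0.45 to 0.42). Abcg5 differed by -0.30 ± 0.203 (-0.74 to 0.13) and Abcd3 by -0.28 ± 0.124 (-0.55 to -0.02, adjusted p = 0.168). Abcc1 differed by 0.34 ± 0.182, Abcc4 by 0.53 ± 0.175 (adjusted p = 0.0594) and Abcc6 by -0.51 ± 0.199 (0.113). Abca12 differed by 0.61 ± 0.219 (0.0843) and Abcb8 by -0.21 ± 0.13 (0.347). Abcb6, which was not called by region, differed by 0.52 ± 0.187 (0.0848). The groups did not overlap for 8 of 27 members, and for 27.2% of all tested genes.

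**Figure D3:**
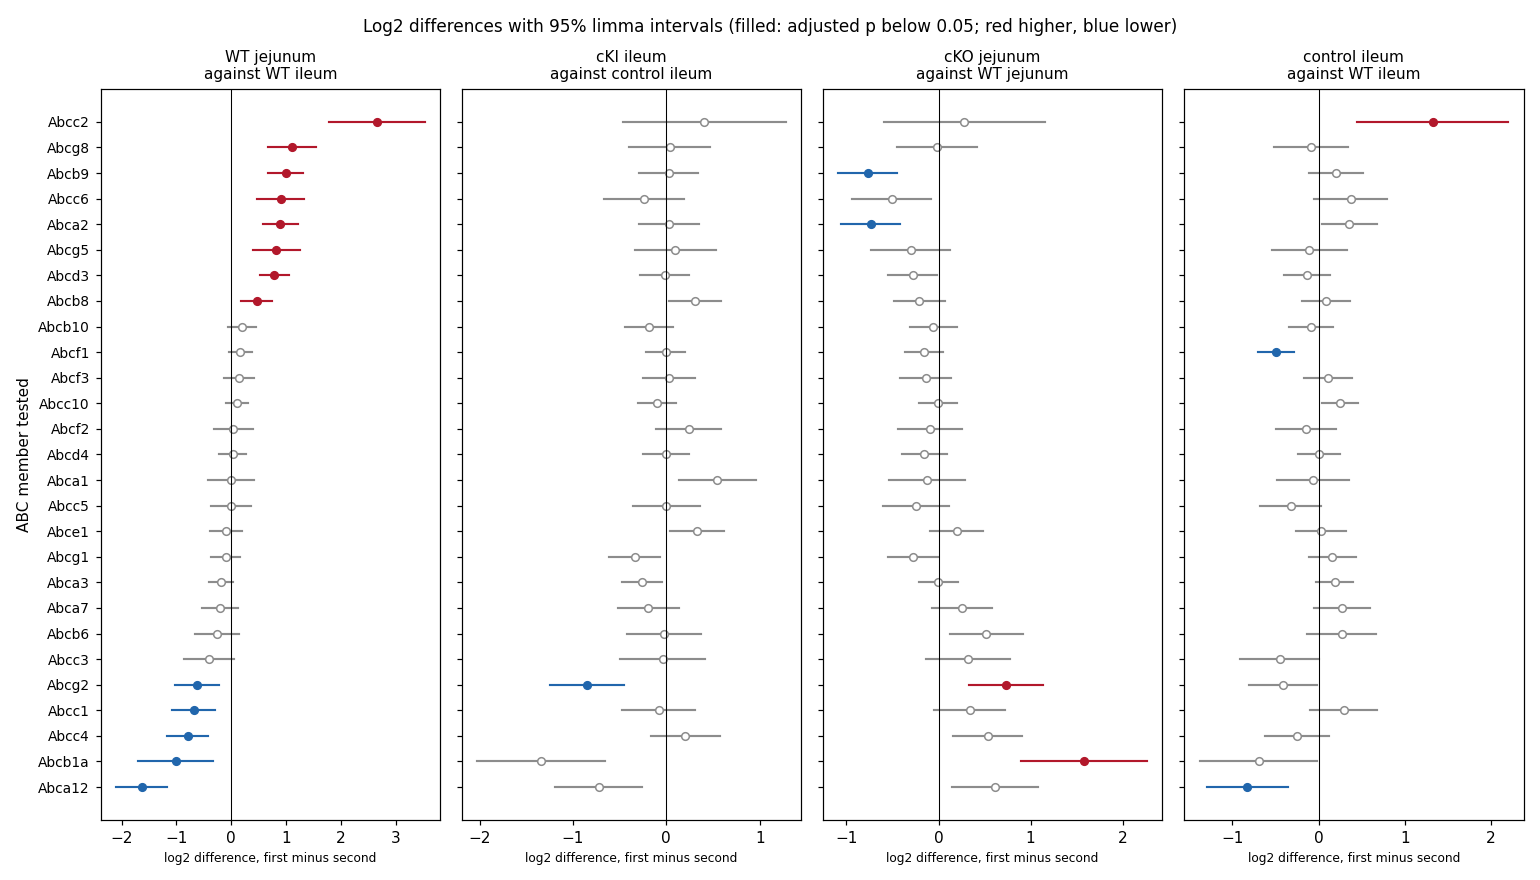
Log2 difference (first group minus second) of the 27 tested members in 4 comparisons, with the 95% interval from limma, sorted by the regional difference; each panel has its own axis range. Filled points are called: 13 in the regional panel, 1 for the cKI, 4 for the jejunum labelled cKO and 3 for control against WT ileum.

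The control ileum and the WT ileum, which carry the same tissue label, differed in 3 of 27 members. That is 11.1% of members, against 27.9% of all tested genes (19.3% higher, 8.61% lower). Abcc2 was higher in the control ileum by 1.32 ± 0.409 (2.5-fold, adjusted p = 0.0257), although the groups overlapped, with 7.84 the lowest control array and 7.89 the highest WT one. Its adjusted p was 0.111 without WT ileum replicate 2, 0.0966 without WT ileum replicate 3, 0.0526 without control ileum replicate 1 and 0.101 without control ileum replicate 2. Abcf1, a translation initiation factor, was at 7.83, 8.04 and 7.97 against 8.37, 8.49 and 8.45, a difference of -0.49 ± 0.0976 (1.41-fold, adjusted p = 0.00197). Abca12 differed by -0.83 ± 0.219 (adjusted p = 0.0118, and 0.0584 without WT ileum replicate 1), with the control mean (4.57) under the test limit. Abcb1a and Abcg2 did not pass, at -0.70 ± 0.32 (0.119) and -0.41 ± 0.186 (0.113) in the fit without added terms. Abcb1a was called with the block within sets (0.0377), array weights (0.0236), the stromal (0.048), T and NK (0.0116) or goblet (0.00859) covariate, and without WT ileum replicate 2 (0.039). Those were 5 of 13 alternative settings and 1 of 15 fits without 1 array, whose adjusted p reached 0.509. Abcg2 was called with quantile scaling (0.0433), array weights (0.0285), the goblet covariate (0.0468), and without WT ileum replicate 2 (0.0416). For Abcg2 those were 3 of 13 alternative settings and 1 of 15 fits without 1 array, whose adjusted p reached 0.383. The groups did not overlap for 8 of 27 members, and for 44.8% of all tested genes. The cKI comparison shares the control arrays with this one.

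Members varied unequally over the 5 groups. Group means spanned 2.94 for Abcc2, 2.6 for Abcb1a, 1.63 for Abca12, 1.37 for Abcg2 and 1.2 for Abcg8. The span was 0.14 for Abcf3, 0.15 for Abcd4, 0.24 for Abcf2 and 0.25 for Abcc10. By order of group means, Abcb1a ran from the cKI ileum (8.43 ± 0.23 SD) over WT jejunum (9.46 ± 0.36), control ileum (9.77 ± 0.39) and WT ileum (10.47 ± 0.77) to the jejunum labelled cKO (11.03 ± 0.36). Only the lowest group stood clear of its neighbour in that order, and the other neighbours overlapped. Abcg2 followed the same order, from 8.27 ± 0.21 over 8.91 ± 0.19, 9.13 ± 0.31 and 9.54 ± 0.32 to 9.65 ± 0.20. Abcc2 instead ran from the WT ileum (6.92 ± 0.84) over control ileum (8.25 ± 0.44), cKI ileum (8.65 ± 0.49) and WT jejunum (9.58 ± 0.67) to the jejunum labelled cKO (9.86 ± 0.41).

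**Figure D4:**
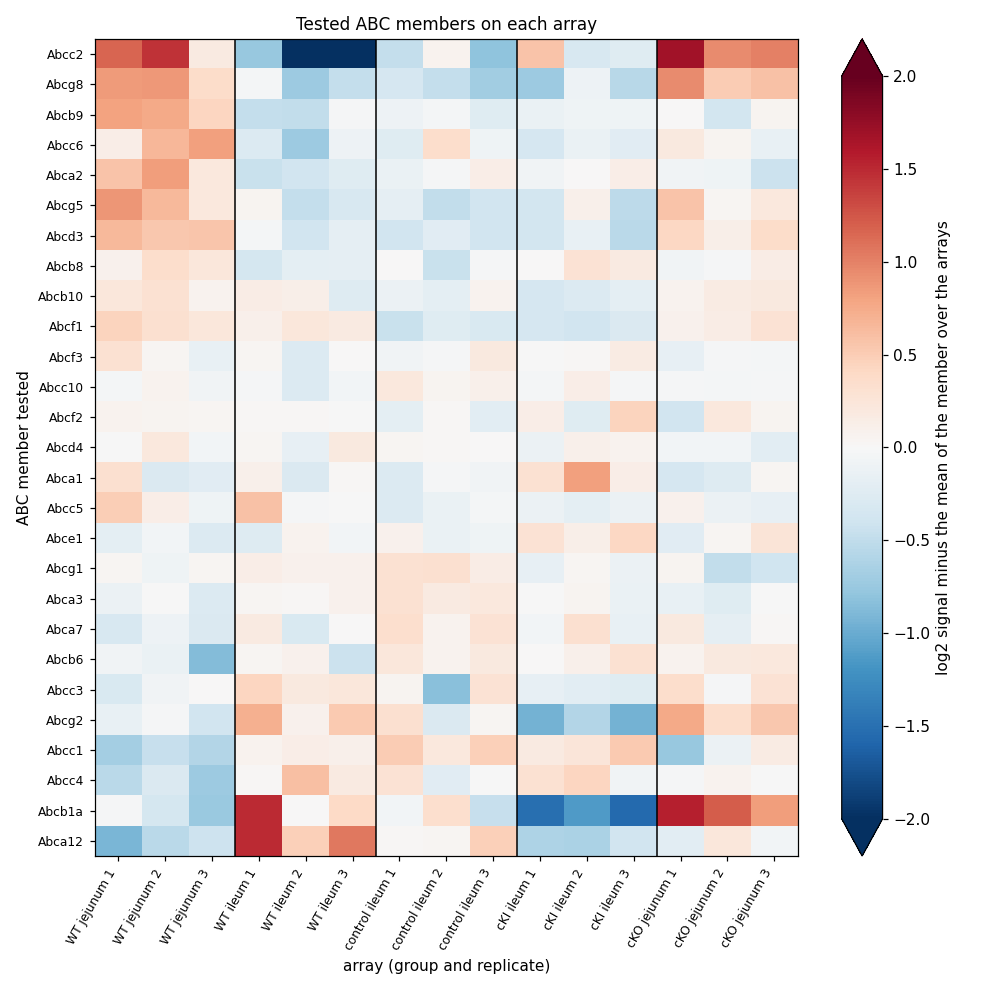
Log2 signal of each of the 27 tested members on each of the 15 arrays, minus the member's mean over the arrays (colour, clipped at 2 in either direction), with members sorted by the regional difference. Abcb1a and Abcg2 are below their mean on all 3 cKI arrays and above it on all 3 arrays labelled cKO, and WT ileum replicate 1 stands above the other WT ileum arrays for Abcb1a and Abcc2.

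Some members lie side by side in the genome. Abcb1a, Abcb1b and Abcb4 are neighbours on chromosome 5, where Abcb1a was tested and the others lay under the limit, Abcb1b with arrays from 3.16 to 4.77. Abcb1a and Abcb1b are close paralogs, and how the array separates them was not tested. The 5 neighbours Abca8b, Abca8a, Abca9, Abca6 and Abca5 on chromosome 11 were all untested, as were Abca14, Abca15 and Abca16 on chromosome 7. The bile salt export pump of the liver, Abcb11, was at 2.09 to 2.96, and the potassium channel regulators Abcc8 and Abcc9 were under the limit too.

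Of 15 tested receptors and other factors that regulate ABC genes, 7 were higher in the WT jejunum, 2 lower and 6 did not pass. The shares of all tested genes were 13.4% higher and 7.91% lower. Nr1i3, the xenobiotic receptor CAR, was higher by 3.36 ± 0.198 (adjusted p = 2.23e-08) and Nfe2l2, of the antioxidant response, by 1.44 ± 0.127 (1.26e-06). In the jejunum labelled cKO, 2 were higher and 5 lower, against 5.17% and 7.65% of all tested genes, with Nr1i3 at -1.93 ± 0.198 (1.37e-05). None of the 15 was called in the cKI ileum, where Nr1i3 differed by 0.86 ± 0.198 (0.0633). In the control ileum, 3 were higher than in the WT ileum, among them Nr1i3 and Nfe2l2, and 1 was lower. Of all tested genes, 19.3% were higher and 8.61% lower there. Of 12 tested drug conjugation genes, 9 were higher in the WT jejunum and none lower. The numbers were 1 higher and 3 lower in the jejunum labelled cKO, and 0 in the cKI ileum. They were 2 higher and 0 lower in control against WT ileum.

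Partners of the sterol pumps and of peroxisomal import were counted from lists. Of all tested genes, 13.4% were higher and 7.91% lower in the WT jejunum. These shares were 5.17% and 7.65% in the jejunum labelled cKO, and 0.339% and 0.424% in the cKI ileum. Of 10 tested genes for sterol uptake and lipoproteins, 7 were higher in the WT jejunum and 1 lower. In the jejunum labelled cKO 3 were lower, among them Scarb1, a lipoprotein receptor (-1.28 ± 0.188, adjusted p = 0.000344), and Mttp, which loads lipid onto apolipoprotein B (-0.84 ± 0.184, 0.00676). Of 10 partners of peroxisomal import and oxidation, 8 were higher in the WT jejunum and 5 lower in the jejunum labelled cKO, among them Slc27a2, an acyl-CoA synthetase (-2.12 ± 0.156, 6.16e-07). Whether Abcg5, Abcg8 or Abcd3 differ from these partners was not tested. In bile acid uptake and return, 4 of 7 genes were lower in the WT jejunum, with differences over the list from -8.28 to 0.56. The 1 higher was Slco2b1, an organic anion importer (0.56 ± 0.142, adjusted p = 0.0107). In the cKI ileum 2 were lower. In the jejunum labelled cKO 6 were higher, with differences over the list from -0.17 to 8.27.

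Some ABC proteins carry other symbols. Tap1 and Tap2 carry antigenic peptides into the endoplasmic reticulum. Tap2 was at 7.89, 7.79 and 7.59 in the WT jejunum, 6.96, 6.97 and 6.95 in the WT ileum and 6.87, 6.17 and 6.71 in the jejunum labelled cKO. It was higher in the WT jejunum by 0.79 ± 0.145 (adjusted p = 0.00101) and differed by -1.17 ± 0.145 (8.1e-05) in the jejunum labelled cKO. Tap1 differed by 0.61 ± 0.187 (0.0304) and -0.86 ± 0.187 (0.00668). Of 8 tested peptide loading partners, 4 were higher in the WT jejunum and 4 did not pass. In the jejunum labelled cKO 2 were lower and 6 did not pass. The 2 were Psmb8 and Psmb9, of the immunoproteasome, which were also among the 4 higher by region. Cftr, the chloride channel of the C subfamily, passed in none of the 4 comparisons, with differences from -0.14 to 0.33. Of 9 tested genes for iron-sulfur clusters and heme, none was called by region and 1 was called in each direction in the jejunum labelled cKO. Of 6 for ribosome recycling, 1 was higher and 1 lower by region, and none was called in the cKI ileum or the jejunum labelled cKO. Either way, 21.3% of all tested genes were called by region, 0.764% in the cKI ileum and 12.8% in the jejunum labelled cKO.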

How the data were processed

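RNA of isolated epithelium from 15 samples (5 groups of 3, by sample title) was measured on Affymetrix Mouse Gene 1.0 arrays. The deposited values are log2, as read from their range, and were made by the authors in Partek per the submitters' processing notes. Background correction, normalization and summarization are not given in the sources used here. Of 35556 transcript clusters, 21789 had 1 symbol, 1621 had several and 12146 were not named by the annotation; the cluster with the highest mean stood for a symbol. With limma 3.58.1 (R 4.3.3; eBayes, two-sided), 1 mean per group and no replicate term were estimated over the 15 arrays together, after testing on simulated data. The unit is the sample, and the number of arrays limits precision. Members and lists were chosen with earlier results of these data known. Named were all called members, those given always (Abcb1a, Abcc1, Abcc2, Abcc3, Abcg2, Abcg5, Abcg8, Abca1, and Abcb1b and Abcb11 where tested), and up to 3 genes per list by smallest p.

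Deviations from the group mean were correlated across genes between arrays of equal replicate number. Correlations were 0.334, 0.216 and 0.161 between WT jejunum and ileum, and 0.128, 0.177 and 0.258 between cKI and control ileum. They were 0.185, -0.0247 and -0.0732 between the jejunum labelled cKO and WT jejunum, and -0.103, -0.265 and -0.0072 between control and WT ileum. Unequal numbers were not compared, so whether the numbers pair any arrays was not tested. Alternatives were other filters, scalings, row choices, fits, blocks and covariates, and leaving out each array. The other marker lists (B and plasma, myeloid, endothelial, Paneth, crypt, enteroendocrine and tuft cells) and partner lists of heme and ribosome recycling were counted the same way.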

Additional observations from a re-analysis of the deposited data

How the results depend on the processing

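The T and NK and goblet covariates were chosen after seeing the data, as was giving values from alternatives for single members only where their unadjusted p was below 0.05. For counts of called members the larger changes are given, and smaller ones are not all listed. The 8 higher in the WT jejunum became 5 with the goblet covariate, and the 5 lower became 3 with a stricter filter and 0 with the goblet covariate. With the stromal covariate, Abcb8 and Abcg5 were no longer called higher, Abcb1a and Abcg2 no longer lower, and Abcc3 was called lower. For the cKI ileum, the 0 higher became 1 with the T and NK covariate. The 1 lower became 0 with no filter, median centring, only the 6 arrays, or the stromal, T and NK or goblet covariate, and 3 with array weights. For the jejunum labelled cKO, the 2 higher became 4 with the replicate block within sets and 0 with the goblet covariate. There the stromal covariate also called Abcc4 higher and Abcc6 lower, and array weights called Abca12 higher and Abcg1 lower. For control against WT ileum, the 1 higher became 2 with only the 6 arrays, 5 with array weights and 0 with the stromal, T and NK or goblet covariate. The 2 lower became 1 with the stricter filter, 4 with array weights, and 5 with the T and NK or goblet covariate. The goblet covariate reversed Abcb1a (2.57), Abcg2 (0.71) and Abcb8 (-0.39) by region, Abcb1a (0.17), Abcb8 (-0.049) and Abce1 (-0.036) in the cKI ileum, and Abcb1a (-0.26) in the jejunum labelled cKO. It also called Abcc2 lower and lost Abca2 in the jejunum labelled cKO, so Abcb9 was the 1 gene shared by both counts of 2. Of the variance of the marker mean, 97% lay between groups for goblet, 79.7% for stromal and 51% for T and NK cell markers. All 3 covariates are thus partly confounded with group. Leaving out 1 array gave 7 to 8 higher and 3 to 6 lower by region, 0 to 0 and 0 to 2 for the cKI ileum, 1 to 4 and 2 to 3 for the jejunum labelled cKO, and 0 to 2 and 1 to 4 for control against WT ileum. The share of called genes that were higher was 62.8% by region (52% after quantile scaling), 40.3% in the jejunum labelled cKO (51.2%) and 69.1% in control against WT ileum (47.9%, and 58.6% after median centring), where quantile scaling moved the median of all genes from 0.08 to -0.02. The replicate block changed no call of a member between WT jejunum and ileum or cKI and control ileum other than those of Abcg2 and Abcb1a given above. Within sets it added Abcb6 (adjusted p = 0.0125) and Abcc4 (0.0344) for the jejunum labelled cKO, whose own arrays had no block term in that fit. Except where an alternative's construction shows it, the cause was not tested.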
